A study of Homo sapiens with 4 samples.

Results

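The matrix genes described here are the collagen chains, the laminin chains, fibronectin, SPARC, the thrombospondins, the fibulins and the catalytic subunits of the collagen prolyl 4-hydroxylases. They were chosen by the gene name that the array design gives each probe. The rule took 67 genes with 108 probes, out of 41000 probes on the array and 18178 genes with a recognised symbol. Of the 67 genes, 42 are collagen chains, 12 are laminin chains, 10 are fibronectin, SPARC, thrombospondins and fibulins, and 3 are prolyl 4-hydroxylase subunits.

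The question was how naive NB4, an established human cell line of acute promyelocytic leukemia (APL), differs from NB4 cells that became resistant to arsenic trioxide (ATO). The resistant cells are 1 clone, written NB4-VM-AsR1 in the labels and NB4-EV-AsR1 in the methods, and both names are taken here for the same clone. Both lines were grown in RPMI with 10% FBS, the naive cells serving as control and the resistant cells being kept off ATO for a week beforehand. From either line 2 flasks, kept independently, gave RNA that was labeled with Cy3 and put on 4 Agilent arrays of 1 slide, with 1 flask per array. The naive flasks lay on the first positions of the slide and the resistant flasks on the last, so that position and line cannot be told apart. With 1 clone and 1 parent line, the p-values measure the spread between flasks and not between clones.

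The extracellular matrix is the scaffold of secreted proteins around cells. Collagens are chains with a regularly spaced glycine, wound around each other into a triple helix that is hydroxylated on proline before secretion, and they form fibrils, networks or anchoring filaments. Laminins join an alpha, a beta and a gamma chain into the cross-shaped molecule of basement membranes, while fibronectin, thrombospondins, fibulins and SPARC bind to both cells and fibers. In bone marrow these genes are mainly a product of stromal cells, which hold blood precursors in place through integrins and other receptors, whereas NB4 cells grow in suspension.

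Some sequences are shown first because the results turn on which stretch of a gene a probe reads. COL4A1 and COL4A2 lie head to head, and the segment between their RefSeq starts, chr13:110307158-110307283 of GRCh38.p14, is printed on the plus strand, which is the sense strand of COL4A2. The capitals mark 1 match to the GC box GGGCGG and 1 match to the CCAAT box. A search on both strands found no TATAAA in the segment. Of 35116 promoter windows of the same length, 34.6% held the GC box, 21.1% the CCAAT box and 5.87% the TATA box, so these matches describe the segment and do not show a binding site.
COL4A1-COL4A2 segment: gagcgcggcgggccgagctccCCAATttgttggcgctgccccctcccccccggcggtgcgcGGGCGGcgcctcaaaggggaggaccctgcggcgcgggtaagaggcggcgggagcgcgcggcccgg

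Among the 68 collagen probes, 3 hold a glycine codon at 1 of every 3 codons of an open frame, which is the pattern of the triple helix, and these read COL3A1, COL4A1 and COL4A5. On all 4 arrays the COL4A1 and COL4A5 probes were well above background, and on none the COL3A1 probe. The second COL4A1 probe is printed with its glycine codons in capitals. Another 10 collagen probes have a stop codon in all 3 frames, so most of the array reads collagens outside the repeat.
COL4A1 second probe: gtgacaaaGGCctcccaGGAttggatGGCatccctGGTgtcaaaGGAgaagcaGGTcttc

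The second probes of COL6A1, COL27A1 and COL18A1 are printed because each of them gave another value than the brighter probe of its gene. The COL27A1 probe lies at chr9:117072895-117072954 on the plus strand of hg19.
COL6A1 second probe: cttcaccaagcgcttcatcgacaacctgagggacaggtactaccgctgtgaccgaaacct
COL27A1 second probe: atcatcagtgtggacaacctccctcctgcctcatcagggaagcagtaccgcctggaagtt
COL18A1 second probe: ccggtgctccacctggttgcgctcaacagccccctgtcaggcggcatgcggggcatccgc

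Signals are given on the log2 scale relative to the 75th percentile of each array, so that a value of 0 is that percentile itself. The software's call of well above background was met by 27921 to 28243 probes per array, and the lowest signal so called lay between -6.58 and -6.17. The naive flasks differed more from each other (SD of their log2 differences 0.71, taken over every tested probe) than the resistant flasks did (0.37), against 1.01 to 1.07 between flasks of different lines. A gene is given by its tested probe with the highest mean signal, or by its probe with the highest mean signal where none was tested. Signal serves here to pick that probe and, in the lists of partner genes further below, the uncalled gene to name. Genes are not otherwise ranked by level. The array reads RNA of a whole flask, so that fewer cells with a transcript and less transcript per cell cannot be told apart.

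Matrix genes were seen above background less often than the genes of the whole array. By the probe that stood for each of the 67 genes, 31 (46.3%) were well above background on all 4 arrays, 13 on some and 23 (34.3%) on none, whereas over all genes 71.0% were on all arrays and 19.3% on none. With every probe counted 22 genes were on none, COL5A1 being seen by another probe. Between 42 and 48 of the 108 probes were well above background per array, and no probe was saturated. Among the fibrillar collagens, whose interstitial types fibroblasts secrete, 6 of 11 chains were on no array by any probe. COL1A1 and COL1A2, the chains of type I collagen, were each read by a probe with 10 spots, and such a probe was counted as well above background where most of its spots were. For COL1A1 the mean signal was -7.00 and -6.93 in the naive flasks and -7.11 and -6.83 in the resistant flasks, and 2 of the 10 spots kept on the second resistant array were well above background against none on the others. COL1A2 lay at -7.69 and -7.25 in naive and -7.26 and -7.25 in resistant flasks, with 1 of 10 spots well above background on the second array of each line. COL3A1 and COL2A1, the chains of type III and type II collagen, and COL11A1 and COL5A3 were on no array either, and COL5A1 was seen by a second probe on the second resistant array alone. The network chains COL4A3, COL4A4, COL4A6 and COL8A2 were on no array, like 5 of 10 FACIT collagens and the type VI chains COL6A2, COL6A6 and COL29A1 (now COL6A5). All 4 transmembrane collagens and both multiplexins were seen on at least 1 array, where 19.3% of all genes were on none. COL17A1 and COL25A1, among the transmembrane ones, were each seen by 1 probe on 1 resistant array alone. Fibronectin (FN1) was above background only on the first resistant array and by 1 of its 3 probes. That probe gave -5.08 there, with -6.92 and -8.40 in naive flasks and -8.83 in the second resistant flask. On the same array an FN1 probe with 10 spots gave -8.54, with 0 of the 8 spots kept well above background. The remaining FN1 probe gave -8.55 there.

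**Figure D1:**
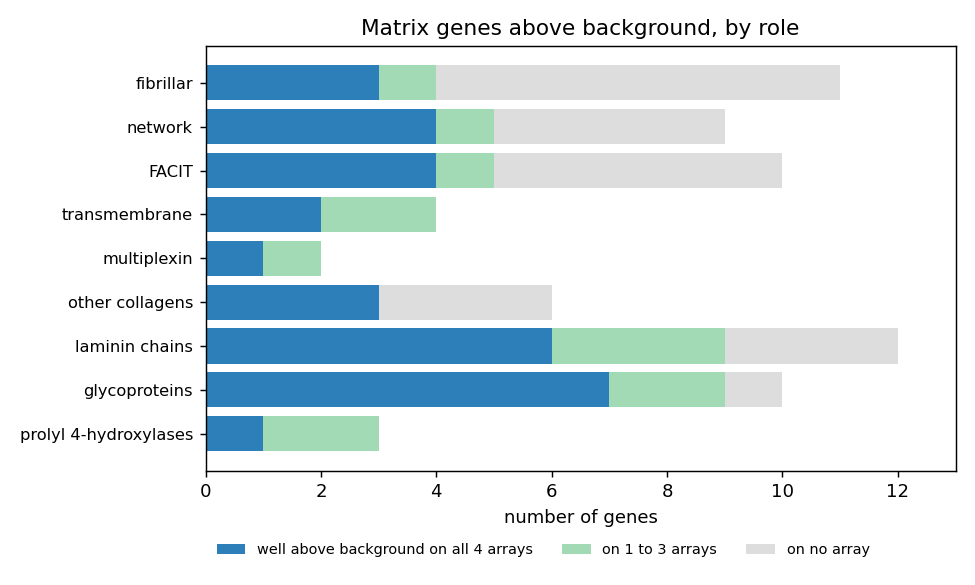
Number of matrix genes (horizontal axis) in each role group (vertical axis) whose representative probe was well above background on all 4 arrays, on 1 to 3 arrays or on no array. By that probe the fibrillar collagens have 7 of 11 genes on no array, whereas 7 of 10 glycoproteins were on all 4.

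Over the 37 matrix genes that could be tested, 3 were called changed between the lines, 2 lower and 1 higher in the resistant line. Testing required a probe well above background in both flasks of the naive line, the resistant line or both, and a gene was called at a Benjamini-Hochberg adjusted p below 0.05 from limma with a change of at least 2-fold. The called share was 8.11%, and over all genes tested it was 6.28% (2.95% higher and 3.33% lower), so that the share was near that of the whole array. COL6A1 and COL27A1 were lower and COL9A2 was higher. All 3 are collagen chains, as were 21 of the 37 genes tested. The fitted change was above 0 for 19 genes and below 0 for 18. The median log2 change was 0.12, and 0.0030 over all genes tested. In 18 of the 37 (48.6%) the flasks of the lines did not overlap, which was so in 57.7% of all genes. With 2 flasks per line an exact two-sided permutation test cannot go below p = 0.333, and the calls therefore rest on the variance that limma shares across probes. The methods' t-test called 0 of all probes once its p-values were adjusted by Benjamini-Hochberg. At an unadjusted p below 0.05 it had 5 of the 37 matrix genes, beside 4137 of 28220 probes of the whole array. Limma had 8 of the 37 at that level, beside 2914 of all 13829 genes tested, so the share was near that of the whole array. The number of calls depended on single flasks, for matrix genes and over the whole array alike. With 1 naive flask left out more were called in both, and with 1 resistant flask left out fewer. Calls gained in this way, as given below for single genes, were thus not particular to matrix genes.

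**Figure D2:**
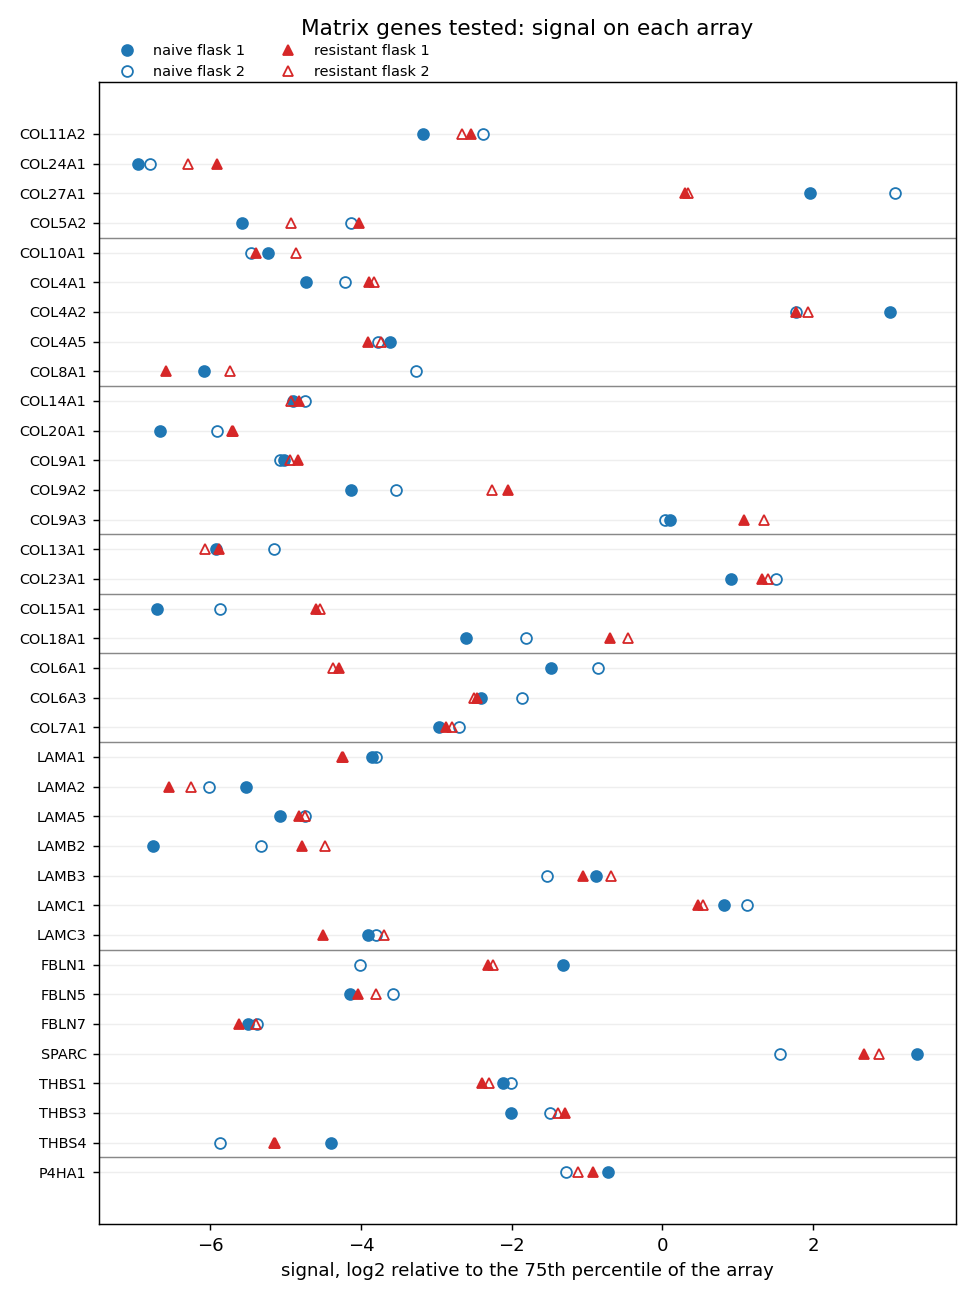
Signal of the tested matrix genes named in the text on each array (log2 relative to the array's 75th percentile), with circles for naive and triangles for resistant flasks, filled for flask 1 and open for flask 2. Grey lines part the role groups in the order fibrillar, network, FACIT, transmembrane, multiplexin, other collagens, laminins, glycoproteins and prolyl 4-hydroxylase. COL6A1 has both resistant flasks below -4 and both naive flasks above -2, and the circles of FBLN1, COL8A1 and SPARC lie far apart.

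**Figure D3:**
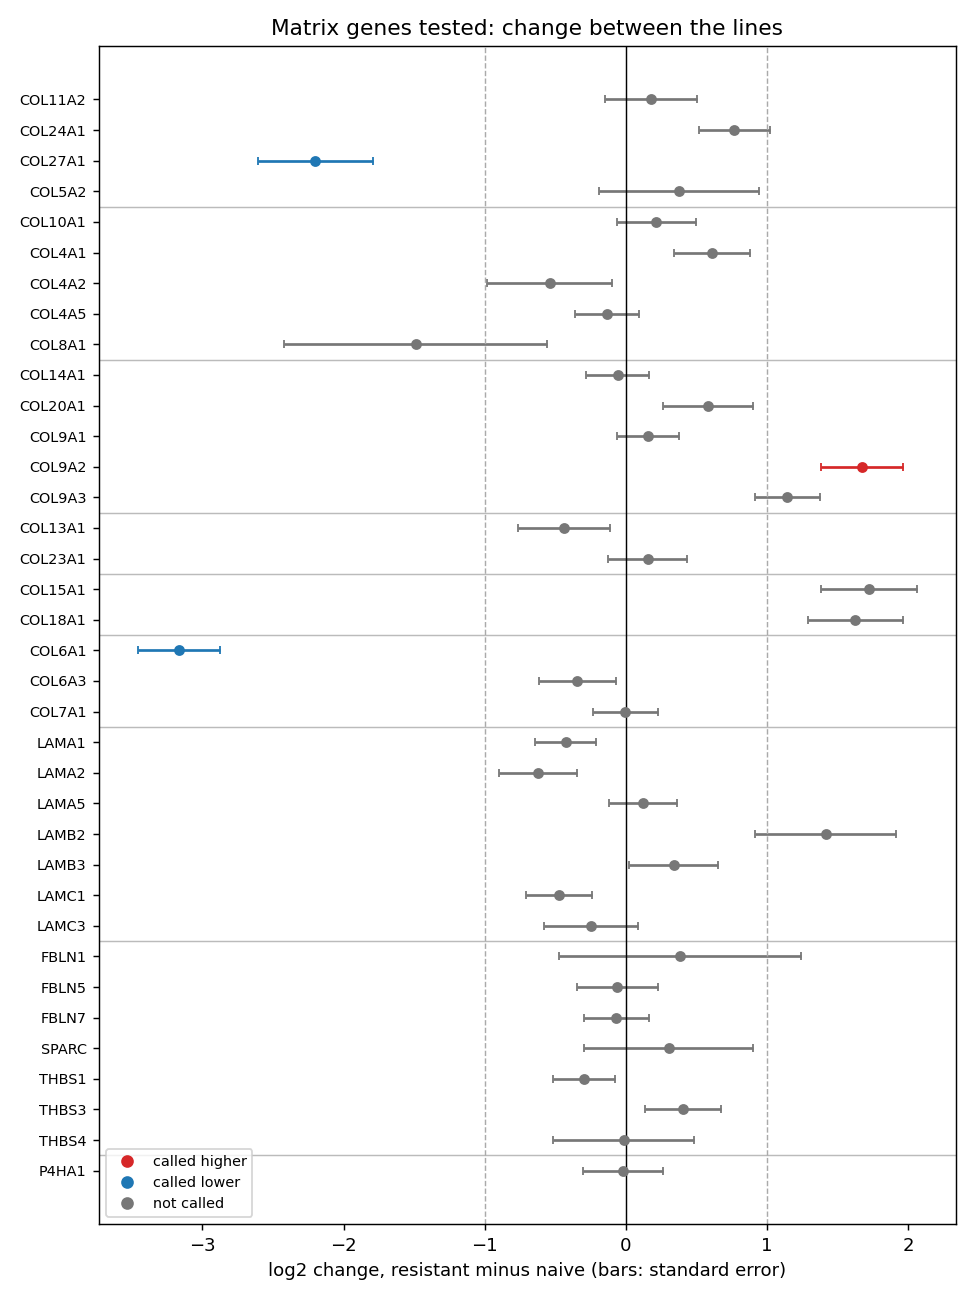
Log2 change of the tested matrix genes named in the text, resistant minus naive, with bars of 1 standard error from limma and dashed lines at a 2-fold change. The called genes are COL6A1 (-3.17), COL27A1 (-2.20) and COL9A2 (1.68).

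COL6A1 had the largest change among the matrix genes tested. It encodes the first alpha chain of type VI collagen, which forms beaded filaments around cells and close to basement membranes. Its probe, chr21:47424836-47424895 of hg19, gave -1.48 and -0.86 in the naive flasks and -4.30 and -4.37 in the resistant flasks. The resistant flasks thus lay close together and well below both naive flasks. The means were -1.17 ± 0.44 (SD, n = 2) and -4.33 ± 0.05 (SD, n = 2), a log2 change of -3.17 (SE, the standard error from limma, 0.29, with an adjusted p of 0.00498), or 8.97-fold lower. The call was kept in 15 of 17 alternatives, and it was lost under the normexp background correction and in the methods' t-test, where no probe of the array was called. Over the alternatives the log2 change ran from -3.48 to -1.48, the smallest under normexp. The second COL6A1 probe, printed above, starts at base 293 of the same transcript against base 4097 for the first. It was not well above background on any array, with -8.42, -8.39, -8.53 and -8.66.

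Of the partners of COL6A1 in type VI collagen, COL6A3 was the only other chain seen. COL6A3 gave -2.41 and -1.86 in naive and -2.46 and -2.51 in resistant flasks, a log2 change of -0.34 (adjusted p = 0.55) that was smaller than the gap between the naive flasks. COL6A2 was on no array, with -7.65, -8.36, -8.56 and -7.21. COL7A1, the chain of the anchoring fibrils below epithelia, overlapped between the lines and was fitted at -0.01.

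COL27A1 was the called gene among the fibrillar collagens. It encodes a chain of thin fibrils known from cartilage. The signal was 1.95 and 3.09 in the naive flasks and 0.30 and 0.34 in the resistant flasks. Both naive flasks were higher than both resistant flasks, and they also differed 2.19-fold from each other. The log2 change was -2.20 (SE 0.41, adjusted p = 0.0486 from limma), or 4.59-fold lower, from 2.52 ± 0.80 to 0.32 ± 0.02 (SD, n = 2 each). This call lay close to the threshold and was kept in 8 of 17 alternatives, while the log2 change stayed between -2.77 and -1.61. Leaving out a resistant flask ended the call, at an adjusted p of 0.172 without flask 1 and 0.152 without flask 2. The second probe gave -1.02 and -0.49 in naive and -1.74 and -1.80 in resistant flasks. It was fitted in the same direction at -1.02 (SE 0.27, adjusted p = 0.123) and was not called, which made COL27A1 the only gene here whose tested probes differed in the call.

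The other fibrillar chains that could be tested are minor ones. COL24A1 was on neither naive array (-6.96 and -6.795) and on both resistant arrays (-5.91 and -6.30). Against background it was at least 1.11-fold higher in the resistant line, and it was not called (adjusted p = 0.189). COL11A2, a chain of the type XI collagen of cartilage, gave -3.18 and -2.38 in naive and -2.54 and -2.67 in resistant flasks and overlapped. COL5A2, a chain that regulates fibril width, gave -5.58 and -4.13 in naive and -4.03 and -4.92 in resistant flasks. The lines overlapped, and its second tested probe was fitted at -0.52 against 0.38 for the first.

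Type IX collagen, which coats cartilage fibrils and is built from the COL9A1, COL9A2 and COL9A3 chains, was seen with all of its chains. COL9A2 was called higher in the resistant line. Its probe, chr1:40766380-40766439 of hg19, gave -4.14 and -3.53 in the naive flasks and -2.05 and -2.27 in the resistant flasks. There was no overlap, and the log2 change was 1.68 (SE 0.29, adjusted p = 0.0402 from limma), or 3.19-fold, from -3.83 ± 0.43 to -2.16 ± 0.15 (SD, n = 2 each). Leaving out a resistant flask gave an adjusted p of 0.264 (flask 1) or 0.175 (flask 2), and the call was kept in 11 of 17 alternatives. The log2 change ran from 0.94 under normexp, below 2-fold, to 1.98 without naive flask 2.

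COL9A3 gave 0.10 and 0.03 in naive and 1.08 and 1.35 in resistant flasks. The flasks of each line lay close together and the lines did not overlap, at a log2 change of 1.15 (SE 0.23) or 2.21-fold, but the adjusted p of 0.0612 did not pass. COL9A3 was called higher when either naive flask was left out (adjusted p 0.0235 without flask 1 and 0.0243 without flask 2). COL9A1 gave -5.03 and -5.07 in naive and -4.84 and -4.94 in resistant flasks, a log2 change of 0.16 (adjusted p = 0.742). The remaining FACIT chains tested were COL20A1, fitted at 0.58 with its naive flasks at -6.67 and -5.91 and both resistant flasks near -5.71, and COL14A1, which binds to fibril surfaces and overlapped at -0.06. The first naive flask of COL20A1 was not well above background.

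The multiplexins COL15A1 and COL18A1 are collagens of basement membranes that carry heparan or chondroitin sulfate chains, and COL18A1 holds the endostatin domain at its end. COL15A1 gave -6.71 and -5.86 in naive and -4.59 and -4.54 in resistant flasks. COL18A1 gave -2.61 and -1.80 in naive and -0.70 and -0.46 in resistant flasks. In both genes each resistant flask was above each naive flask, and the log2 changes were 1.72 (SE 0.34, adjusted p = 0.0568) and 1.63 (SE 0.34, adjusted p = 0.0655), so that neither was called by limma although both had an unadjusted p below 0.05. Both genes stayed higher in the resistant line with either naive flask left out. Naive flask 1 of COL15A1, at -6.71, was not well above background, so that the change of this gene is in part against background. The change of COL15A1 fell to 0.54 under normexp and to 0.48 with bright local backgrounds reset, while that of COL18A1 was 1.18 and 1.36.

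The second probes of the multiplexins gave smaller changes. The COL15A1 one, which starts at base 3861 of the same transcript against base 4969, gave -6.08 and -6.15 in naive and -5.86 and -6.23 in resistant flasks and was fitted at 0.07. The COL18A1 one gave -4.61 and -4.10 in naive and -3.63 and -3.72 in resistant flasks, without overlap, and was fitted at 0.68 (adjusted p = 0.256). Both transmembrane collagens tested overlapped between the lines, with no unadjusted p below 0.05. COL23A1 gave 0.92 and 1.51 in naive and 1.33 and 1.41 in resistant flasks, and COL13A1, a collagen of cell contacts, gave -5.93 and -5.15 in naive and -5.89 and -6.07 in resistant flasks. COL17A1 and COL25A1 were each above background on 1 resistant array and were not tested.

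Type IV collagen is the network of basement membranes, and its main form joins COL4A1 and COL4A2 chains. COL4A2 gave 3.02 and 1.77 in the naive flasks and 1.77 and 1.94 in the resistant flasks. The first naive flask stood above the other 3, which lay together. The log2 change of -0.54 (SE 0.44, adjusted p = 0.563) was smaller than the 2.38-fold gap between the naive flasks. COL4A2 was fitted at 0.09 without the first naive flask, and it was called lower, at -1.16 (adjusted p = 0.0174), without the second.

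COL4A1, transcribed from the other end of the segment printed above, gave -4.74 and -4.21 in naive and -3.89 and -3.83 in resistant flasks, a log2 change of 0.61 (adjusted p = 0.306). By this probe COL4A1 was fitted in the opposite direction to COL4A2, with the naive flasks in opposite order, and neither gene was called. The second COL4A1 probe, the one in the glycine repeat, gave -4.88 and -5.96 in naive and -5.70 and -6.36 in resistant flasks and was fitted at -0.61, in the direction of COL4A2 and with the naive flasks in the same order as there. The probes of COL4A1 thus disagreed in direction, and neither was called.

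COL4A5, a chain of kidney basement membrane, gave -3.61 and -3.77 in naive and -3.91 and -3.73 in resistant flasks and overlapped. COL10A1, the collagen of hypertrophic cartilage, lay between -5.45 and -4.86 on all arrays. COL8A1, a short network chain of vessel walls, gave -6.08 and -3.27 in naive and -6.59 and -5.74 in resistant flasks. It stood out only in the second naive flask, 7.02-fold above the first, and its log2 change of -1.49 had a standard error of 0.93 (adjusted p = 0.447). Without the first naive flask COL8A1 was fitted at -2.90, and without the second at -0.08. Its first resistant flask, at -6.59, was not well above background, so that the change is in part against background. Of its 3 probes, 2 were on no array. None of the 5 network chains tested had an unadjusted p below 0.05 in limma.

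Of the 12 laminin chains, 8 were tested and limma called 0, beside 6.28% of all genes tested, with 1 (LAMB2) at an unadjusted p below 0.05. The gamma chain LAMC1, part of most laminins, gave 0.82 and 1.12 in naive and 0.47 and 0.53 in resistant flasks. It did not overlap, at a log2 change of -0.47 (SE 0.24, adjusted p = 0.357). LAMB2, the beta chain of muscle and kidney laminins, gave -6.76 and -5.33 in naive and -4.78 and -4.48 in resistant flasks. It was fitted at 1.42 (SE 0.50, adjusted p = 0.22), a change of 2.67-fold beside a gap of 2.71-fold between its naive flasks. Its first naive flask, at -6.76, was not well above background. LAMB2 was fitted at 2.13 without the second naive flask, so that this change is against a flask at background. Its change was 0.70 without the first naive flask, 0.52 under normexp and 0.47 with bright local backgrounds reset.

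LAMB3, a beta chain of epithelial laminins, gave -0.88 and -1.53 in naive and -1.05 and -0.68 in resistant flasks and overlapped, and the alpha chain LAMA3 was on no array. LAMA1, the alpha chain of the early embryo, gave -3.85 and -3.80 in naive and -4.24 and -4.26 in resistant flasks, a log2 change of -0.43 (adjusted p = 0.363). It was read by 5 probes, of which 2 could be tested (-0.43 and -0.64) and 3 were on no array. The probe that gave these signals starts at base 441 of its transcript. Those on no array start at bases 7575, 8021 and 9364 of the same transcript. LAMA2, the alpha chain of muscle, was fitted at -0.62 without overlap (adjusted p = 0.309), while LAMA5 and LAMC3 overlapped at 0.12 and -0.25. The first resistant flask of LAMA2, at -6.54, was not well above background. LAMB1 was above background only on the first naive array, and LAMA4 and LAMB4 were on none.

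SPARC (osteonectin), a glycoprotein that binds collagen and calcium, had uneven naive flasks. It gave 3.37 and 1.57 in naive and 2.68 and 2.87 in resistant flasks. The resistant flasks fell between the naive ones, which differed 3.50-fold, and the log2 change was 0.30 (SE 0.60, adjusted p = 0.828). With naive flask 1 left out SPARC was called higher (1.21, adjusted p = 0.0187), and with naive flask 2 left out it was fitted at -0.60.

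FBLN1 (fibulin-1), a protein of elastic fibers and basement membranes, had the same order of flasks. It gave -1.32 and -4.01 in naive and -2.31 and -2.25 in resistant flasks, a 6.46-fold gap between the naive flasks, and a log2 change of 0.38 (adjusted p = 0.849). Leaving out the first naive flask gave 1.73 (adjusted p = 0.0048, called) and leaving out the second -0.96 (adjusted p = 0.027, under 2-fold). The second tested FBLN1 probe, of another transcript, gave -6.04 and -5.66 in naive and -6.25 and -6.02 in resistant flasks. Its naive flasks were 1.30-fold apart in the opposite order, and it was fitted at -0.29. THBS4, a thrombospondin of tendon and muscle, had its naive flasks at -4.40 and -5.87 on either side of the resistant flasks at -5.14 and -5.16.

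THBS1, an adhesive protein of platelets, gave -2.11 and -2.004 in naive and -2.39 and -2.31 in resistant flasks, without overlap, at a log2 change of -0.29 (adjusted p = 0.524). A second THBS1 probe of the same transcript, with 10 spots, was well above background on no array. That probe gave -8.08 and -7.59 in naive and -8.24 and -8.07 in resistant flasks. THBS3 gave -2.01 and -1.49 in naive and -1.30 and -1.39 in resistant flasks, without overlap, at 0.41. The elastic fiber protein FBLN5 (-0.06) and FBLN7 (-0.07) overlapped, FBLN2 was on no array, and THBS2 was above background only on the second naive array. Of the 7 genes of this group that were tested limma called 0, beside 6.28% of all genes tested, and none had an unadjusted p below 0.05.

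The uneven naive flasks recurred over the matrix genes. The gap between the naive flasks was larger than the change between the lines in 22 of 37 genes (59.5%), and over all genes tested it was larger in 49.7%. It was at least 2-fold in 8 matrix genes, namely COL27A1, COL5A2, COL4A2, COL8A1, LAMB2, FBLN1, SPARC and THBS4, and over all genes in 10.3%. None of the 37 reached 2-fold between the resistant flasks, where 1.70% of all genes did. The median gap was 0.56 between naive and 0.13 between resistant flasks on the log2 scale, and 0.35 and 0.16 over all genes tested. The direction was not shared. SPARC, FBLN1, THBS4 and COL4A2 were higher in the first naive flask and COL8A1, COL5A2, LAMB2 and COL27A1 in the second.

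**Figure D4:**
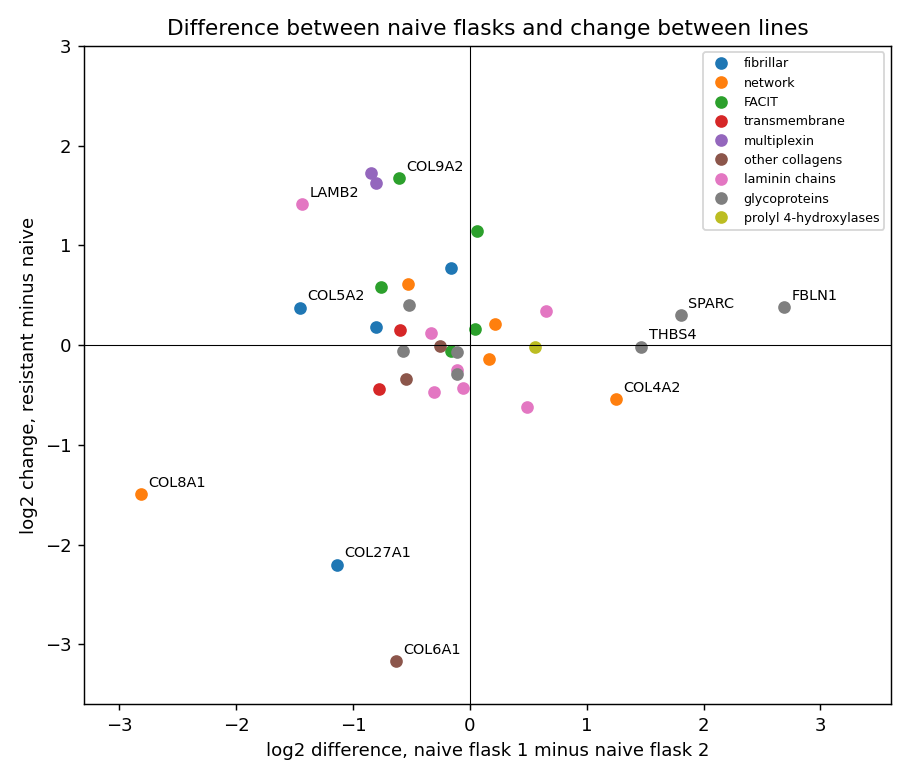
Log2 difference between the naive flasks, first minus second (horizontal axis), against the log2 change between lines, resistant minus naive (vertical axis), for the tested matrix genes named in the text, colored by role. Both axes use the same naive signals, so no relation between them is read, and genes far to the left or right (FBLN1, COL8A1, SPARC) are those with uneven naive flasks.

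The probes of a gene differed in what they saw. Of 29 matrix genes with more than 1 probe, 9 had a probe on all 4 arrays and another on none. Of the 7 genes with 2 tested probes, COL15A1, COL18A1, COL27A1 and LAMA1 had both fitted in the same direction, and COL4A1, COL5A2 and FBLN1 had them in opposite directions.

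**Figure D5:**
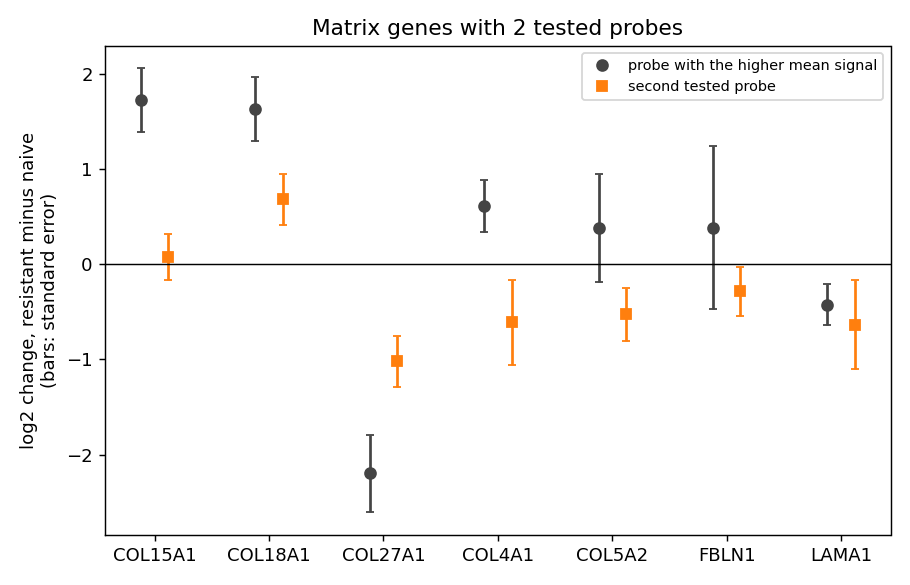
Log2 change, resistant minus naive, for the 7 matrix genes with 2 tested probes, with the brighter probe as a circle, the second as a square and bars of 1 standard error from limma. The bars of the paired probes do not meet in COL15A1, COL18A1, COL27A1, COL4A1 and COL5A2.

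Collagen chains need prolyl 4-hydroxylase to fold. Its alpha subunit P4HA1 gave -0.72 and -1.28 in naive and -0.92 and -1.12 in resistant flasks and overlapped. P4HA2 was above background only in the first naive flask, at -4.001, with -8.40, -8.53 and -8.69 in the others, and P4HA3 only in the second resistant flask. The beta subunit P4HB, which is also the protein disulfide isomerase of the endoplasmic reticulum, was saturated on 2 arrays, with signals from 5.65 to 6.11, and was not called.

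Of 16 genes for procollagen folding and modification, P4HB among them, 14 were tested and 1 was called (7.14%, beside 6.28% of all genes tested). This was FKBP10, a prolyl isomerase that helps to fold procollagen, with -8.13 and -8.43 in naive and -5.69 and -6.18 in resistant flasks. FKBP10 was on neither naive array and at least 1.25-fold higher in the resistant line (adjusted p = 0.0118 from limma), so that the bound is under the 2-fold threshold. The median log2 change of these genes was 0.33.

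Among 15 genes for trimming and crosslinking 11 were tested and 2 were called (18.2%), both lower. Over all genes tested 6.28% were called, and 3.33% were called lower. LOXL1, an enzyme that crosslinks elastin and collagen, gave -0.38 and -0.47 in naive and -3.63 and -3.54 in resistant flasks, a log2 change of -3.16 (adjusted p = 0.0022), or 8.92-fold lower. PXDN (peroxidasin), which crosslinks the type IV collagen network, gave 2.32 and 1.93 in naive flasks. On both resistant arrays it was not well above background (-8.53 and -8.58), and it was at least 382-fold lower in the resistant line (adjusted p = 0.000509). COL4A1 and COL4A2, whose network PXDN acts on, were not called, as given above. PCOLCE2, an enhancer of procollagen cleavage, was not called and gave 0.46 and 1.01 in naive and -0.61 and -0.38 in resistant flasks (adjusted p = 0.0876).

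Of 41 other matrix glycoproteins and proteoglycans 24 were tested and limma called 0, beside 6.28% of all genes tested. Among the 24, 5 had an unadjusted p below 0.05, beside 2914 of all 13829 genes tested. The median log2 change was -0.26. SRGN (serglycin), the proteoglycan of blood cell granules, was saturated on all 4 arrays. Of 28 receptors for collagen, laminin and fibronectin 24 were tested and 1 was called (4.17%, beside 6.28% of all genes tested). ITGA6, the alpha subunit of a laminin-binding integrin, was lower, with -0.22 and -0.21 in naive and -1.98 and -1.89 in resistant flasks (log2 change -1.72, adjusted p = 0.0141), or 3.29-fold. The laminin receptor BCAM was saturated on 3 arrays, with signals from 5.86 to 6.14, and was not called.

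The label of the cells was set against marker genes, and the calls among these stand beside 6.28% of all genes tested. All 8 promyelocyte markers were tested and 7 were on all 4 arrays, with ELANE (neutrophil elastase, log2 change 2.49, adjusted p = 0.0169) and AZU1 (azurocidin, 1.17, adjusted p = 0.0472) higher in the resistant line. The summed signal of the 8 promyelocyte markers, as multiples of the 75th percentile, was 203 and 201 in naive and 221 and 266 in resistant flasks. MPO was saturated on 4 arrays and MYB and CTSG on 2 each, so that no difference between the lines is read from this sum. Of 10 fibroblast or stromal markers 5 were on all 4 arrays, while LUM, PDGFRA and POSTN, like COL1A1, COL1A2 and COL3A1, were on none. The summed signal of that list was 1.53 and 1.71 in naive and 1.26 and 1.19 in resistant flasks, and its called gene was ACTA2 (log2 change -1.43, adjusted p = 0.0262). Of 7 endothelial markers 4 were on all arrays and CDH5, KDR and TEK on none, the summed signal being 1.06 and 1.46 in naive and 1.27 and 1.38 in resistant flasks, and TIE1 was called lower (-2.72, adjusted p = 0.0105). Of 6 epithelial markers 4 were on all arrays and CDH1 and KRT5 on none, the summed signal being 7.58 and 10.4 in naive and 3.97 and 4.41 in resistant flasks, and KRT18 was called lower (-4.16, adjusted p = 0.00213). Without KRT18 the sum was 2.99 and 3.94 in naive and 3.70 and 4.06 in resistant flasks. The part of other cell types in the lower COL6A1 and COL27A1 was not tested.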

How the data were processed

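Gene expression was measured on 1-colour Agilent arrays in 2 flasks each of naive and ATO resistant NB4. Images were read by the authors in Feature Extraction 10.5.1.1, and the deposited processed signal is a linear intensity, background subtracted and with a surrogate for low spots. The deposited mean signal and local background are intensities too. A deposited log2 table, shifted by the authors to the 75th percentile in GeneSpring GX, correlated with the values used here at 0.9998 or more on each array.

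In R 4.3.3, control and outlier spots were left out, log2 processed signals were averaged per probe and shifted by each array's 75th percentile. Lines were compared with limma 3.58.1 over 28220 probes, of which 1486 (5.27%) were called. Fold bounds use, per array, the lowest signal well above background or the probe's own if higher. The members and all gene lists were chosen with earlier results of these data known. Genes were named where called, where seen on all 4 arrays or in 1 line, or where probes disagreed (1 such gene is counted but not reported here), and in partner lists where called or, among the uncalled, where mean signal was highest. Current symbols came from RefSeq accessions (GRCh38.p14) for 98 of 108 probes, and 90 have an hg19 position in the files. The number of arrays limits precision. The alternatives, 17 in all, are given under the dependence on processing.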

Additional observations from a re-analysis of the deposited data

How the results depend on the processing

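The counts of matrix genes called higher and lower (1 and 2) were recomputed under 17 alternatives, and limma was kept except where named. The normexp background correction gave 0 and 0, with 930 of all probes and 3 matrix genes at an unadjusted p below 0.05, and it moved the median change of all probes tested from -0.02 to 0.13. With bright local backgrounds reset it gave 2 higher, quantile normalization 2 and 1, scale normalization 3 higher, the median shift 3 higher and the intensity trend 3 higher. Without a filter on dim probes the counts were 0 and 1. Lower counts of 1 came from keeping only probes well above background on all 4 arrays, from leaving out saturated probes and from the mean over all tested probes of a gene. The methods' t-test, adjusted by Benjamini-Hochberg, gave 0 and 0, with 4137 probes at an unadjusted p below 0.05. Leaving out 1 flask gave 0 to 6 higher and 1 to 4 lower, the lowest without either resistant flask and the highest without the first naive flask. The lone flask of a line is then assumed to vary like the other line's, and the resistant flasks varied less. Calls over the whole array also rose without a naive flask and fell without a resistant flask. The gain and loss of calls were thus not particular to matrix genes. COL6A1 kept its call in 15 alternatives, COL9A2 in 11 and COL27A1 in 8.

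Same-numbered flasks share only a number. Their deviations correlated at 0.12 over 2 pairs, too few to settle a pairing. With the replicate number as a block 1 gene was called higher and 2 lower, out of 1373 probes called, but COL18A1 (adjusted p = 0.0482) took the place of COL9A2 (adjusted p = 0.059). The slide could not be a block, since all arrays lay on 1 slide.

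Of 623 values of single genes, 541 kept direction and side of the threshold, 20 moved past it, 17 fell short of it and 45 changed sign, all of the last in genes not called, and the cause was not tested. Under normexp the log2 changes turned to 0.176 (COL13A1), 0.290 (COL14A1), 0.212 (COL4A5), 0.103 (COL7A1), 0.213 (FBLN5), 0.271 (FBLN7), 0.129 (LAMA1), 0.274 (LAMA2), 0.268 (LAMC3), 0.115 (P4HA1) and 0.310 (THBS4), and with bright local backgrounds reset to 0.0985 (COL14A1), 0.0184 (FBLN5) and 0.0599 (P4HA1). Quantile normalization gave 0.0454 (COL14A1), 0.0399 (COL7A1), 0.0411 (FBLN7), 0.0101 (P4HA1) and 0.102 (THBS4). Scale normalization gave 0.0549 (COL7A1), 0.0731 (P4HA1) and 0.00857 (THBS4), the median shift 0.0394 (COL7A1), 0.0242 (P4HA1) and 0.0303 (THBS4), and the mean over probes -0.0740 (COL5A2). With 1 flask left out at a time the values ran from -0.0456 to 0.480 for COL10A1, -0.221 to 0.579 for COL11A2, -0.138 to 0.0255 for COL14A1, -0.144 to 0.452 for COL23A1, -1.16 to 0.0854 for COL4A2, -0.351 to 1.104 for COL5A2, -0.135 to 0.124 for COL7A1, -0.961 to 1.73 for FBLN1, -0.346 to 0.225 for FBLN5, -0.176 to 0.0433 for FBLN7, -0.0434 to 0.286 for LAMA5, -0.651 to 0.159 for LAMC3, -0.299 to 0.258 for P4HA1, -0.599 to 1.21 for SPARC and -0.749 to 0.719 for THBS4.

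Signal over background limits these results, since 22 of 67 genes were on no array by any probe, and a gene at background on these arrays has no measured level.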

Other observations

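Outside the rule for named genes, and chosen after their values were seen, a pair of matrix partners had large fitted changes that were not called, with naive flasks far apart. TNXB (tenascin-X), a glycoprotein that links collagen fibrils, gave -3.55 and -0.14 in naive and 1.68 and 1.73 in resistant flasks, a fitted log2 change of 3.55 (SE 1.07, adjusted p = 0.165 from limma). LEPREL2, a prolyl 3-hydroxylase of collagen chains, gave -3.71 and -1.30 in naive and 0.30 and 0.39 in resistant flasks, a log2 change of 2.85 (SE 0.77, adjusted p = 0.13). In both genes each resistant flask was above each naive flask.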
